A study of Mus musculus with 7 samples.

Results

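The genes examined here encode the heterogeneous nuclear ribonucleoproteins (hnRNPs), the serine and arginine rich (SR) splicing factors and the polypyrimidine tract-binding proteins (PTB). They are every row whose symbol starts with Hnrnp, is Srsf followed by a number, or is Ptbp1, Ptbp2 or Ptbp3, which gave 34 of the 24346 genes in the table: 20 hnRNP genes, 11 SR genes and 3 PTB genes. RNA was measured in 7 libraries of primary neurospheres, the floating clusters of cells that neural stem cells (NSCs) form in culture, each grown from the hippocampus of 1 mouse. Of these, 4 were controls (mice WT_215, WT_116, WT_213, WT_220) and 3 were Med23 CKO (mice KO_117, KO_214, KO_218), all C57/BL6 and aged 2 months by their labels. Wherever values follow one another without names, they are in this order of mice. Both groups had received oral tamoxifen (TAM) at 200 mg/kg for 5 days. By the methods, cultures were made from mice aged 2 months that had received TAM at a younger age, whereas the labels' protocol gives 2 months for TAM, followed by 3 to 4 weeks of recovery before most experiments. Med23 CKO mice carried Nestin-CreER and 2 floxed Med23 alleles, with exons 5 to 7 between the loxP sites, while controls were labelled wild type and are described in the methods as littermates with floxed Med23 but without the recombinase. Presence of the recombinase and loss of Med23 therefore cannot be told apart, and the recombinase acts only in cells that express Nestin. Values are FPKM, fragments scaled to transcript length and to the fragments mapped in a library, so levels can be compared between genes per unit of length. A change in the cells present and a change of RNA per cell cannot be told apart in such pooled cultures.

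hnRNPs coat the new transcript and often act as repressors of exons, whereas SR proteins bind exons through an RNA recognition motif and draw in the spliceosome with a domain rich in arginine and serine. PTB proteins bind pyrimidine-rich tracts upstream of exons and repress them. In the brain, Ptbp1 is high in progenitors and represses neuronal exons, Ptbp2 takes over in young neurons, and Ptbp3 is a relative best known from blood cells. Med23 is a subunit of Mediator, which links transcription factors to RNA polymerase II, and its protein is known to bind the splicing factor hnRNP L. Many genes of these families also control their own level by splicing, through exons whose inclusion or skipping leads to nonsense-mediated decay of the transcript.

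The exon by which PTB genes control each other is shown here because FPKM does not separate the transcripts with and without it. In the GENCODE annotation of GRCm38, exon 10 of 14 in both Ptbp1 (chr10:79862014-79862047, forward strand) and Ptbp2 (chr3:119724612-119724645, reverse strand) is a coding exon of 34 bases, and division by 3 leaves a remainder of 1. For both genes, the annotation holds a transcript marked for decay that joins the neighbouring exons without it. The 2 exons are identical at 26 of 34 bases, and the 8 positions that differ are in capitals below.
Ptbp1 exon: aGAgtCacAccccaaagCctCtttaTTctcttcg
Ptbp2 exon: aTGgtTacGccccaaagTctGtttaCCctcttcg
FPKM sums all transcripts of a gene, so productive and decaying forms were not separated here. Of the 34 genes, 22 (64.7%) have at least 1 annotated transcript marked for nonsense-mediated decay, against 27.8% of the 13096 protein-coding genes tested. By family these were 10 of 20 hnRNP genes, 9 of 11 SR genes and 3 of 3 PTB genes. A transcript with a retained intron is annotated for 25 (73.5%), against 57.9% of the tested protein-coding genes. Hnrnpa0 has a single exon and a single annotated transcript, so it has no intron to splice.

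The stretches before the transcription start are shown for the hnRNP gene and the SR gene with the highest control mean. Most of the family varied together from library to library, but Srsf5 ranged only 1.37-fold and was highest in WT_213. Whether these stretches bear on the levels was not tested. They are the 250 bases upstream of RefSeq start sites on GRCm38.p6, in the direction of transcription, with matches to 3 motifs on either strand in capitals. The first is the CCAAT box. Another is the GC box, whose letters are GGGCGG. The last is CCGGAAG, a core bound by ETS factors.
Hnrnpa1, chr15:103240147-103240396, forward strand: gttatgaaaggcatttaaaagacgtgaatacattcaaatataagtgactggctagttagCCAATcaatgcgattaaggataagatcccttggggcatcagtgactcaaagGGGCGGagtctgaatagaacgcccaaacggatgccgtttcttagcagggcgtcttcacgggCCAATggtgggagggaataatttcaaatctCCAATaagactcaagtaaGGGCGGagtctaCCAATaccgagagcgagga
Srsf5, chr12:80945249-80945498, forward strand: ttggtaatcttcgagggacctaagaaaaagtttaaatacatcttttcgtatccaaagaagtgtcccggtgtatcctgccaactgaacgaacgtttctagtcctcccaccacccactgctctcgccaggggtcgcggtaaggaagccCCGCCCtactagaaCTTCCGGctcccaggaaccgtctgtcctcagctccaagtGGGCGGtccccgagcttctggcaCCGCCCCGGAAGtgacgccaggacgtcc
The Hnrnpa1 stretch holds 4 CCAAT and 2 GGGCGG, and the Srsf5 stretch 3 GGGCGG and 2 CCGGAAG, one of which overlaps a GC box. Promoters of 300 bases (250 before the start and 50 after it) were found for 31 of the 34 genes, 43 start sites in all. GGGCGG was in 36 of the 43 (83.7%, against 35.7% of all 32851 promoters), CCAAT in 22 (51.2% against 37.4%) and CCGGAAG in 10 (23.3% against 8.86%). Each start site was counted, also where those of 1 gene overlap, so the same match can count more than once. By gene, these matches lay in 26, 18 and 6 of the 31 genes, in that order. No share by gene was taken for all promoters. TTTCCCGC, an E2F-type site, was in 4 (9.3% against 1.07%), the palindrome bound by NRF1 in 1 (2.33% against 0.971%) and the TATA box TATAAA in 4 (9.3% against 13.6%). The median GC content of these promoters was 68.3%, against 52.7% for all promoters.

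In control neurospheres, 16 of the 34 genes had a mean above 100 FPKM, and the median of the family was 94.0 FPKM, against 10.97 FPKM over all 14151 genes tested. Hnrnpa1, which represses exons and opposes Srsf1 at many sites, was the highest, at 366 ± 127 FPKM (SD, n = 4). Next were Hnrnpk, a protein with KH domains that binds C-rich RNA, at 364 ± 43.8 FPKM and Hnrnpa2b1, a close relative of Hnrnpa1 that also guides RNA along neuronal processes, at 356 ± 77.2 FPKM (SD, n = 4 each). The control values of these 3 genes overlapped, so their order is not resolved. Hnrnpf, which binds runs of G, had 260 ± 41.7 FPKM, and Srsf5, the highest SR gene, had 259 ± 29.8 FPKM (SD, n = 4 each), again with overlapping values. The lowest hnRNP gene was Hnrnpr with 23.2 FPKM, and the SR genes reached down to Srsf4 with 21.3 FPKM and Srsf12 with 2.19 FPKM. Among PTB genes, Ptbp1 had 72.8 ± 26.9 FPKM, Ptbp2 49.7 ± 9.43 FPKM and Ptbp3 11.97 ± 1.99 FPKM (SD, n = 4 each). By group mean, the 6 highest genes held the same ranks in Med23 CKO neurospheres, but single libraries differed. Hnrnpa1 was above Hnrnpk in KO_117 (650.0 and 434 FPKM). It was below Hnrnpk in KO_214 (147 and 260 FPKM) and in KO_218 (339 and 349 FPKM). All 34 genes passed the filter on low values, a mean of at least 0.5 FPKM over the 7 libraries.

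The family ranged widely between mice of the same genotype, and most of its genes took a like order of mice. The summed FPKM of the 34 genes was 5225 in WT_215, 3229 in WT_116, 4094 in WT_213 and 5127 in WT_220, and 6200 in KO_117, 2642 in KO_214 and 3820 in KO_218. The highest and the lowest of the 7 libraries were thus both Med23 CKO, and the sum was 2.35-fold higher in KO_117 than in KO_214, while the controls spanned 1.62-fold. As a share of all FPKM, the family held 1.14% in KO_117 and 0.493% in KO_214, and between 0.663% and 1.05% in the controls. KO_117 was the highest library for 23 of the 34 genes, where it was the highest for 23.6% of all genes tested. KO_214 was the lowest for 26 of the 34, where it was the lowest for 18.7% of all genes tested. Both held for 20 genes. By family, 17 of the 20 hnRNP genes, 5 of the 11 SR genes and 1 of the 3 PTB genes were highest in KO_117. Lowest in KO_214 were 16 of the 20 hnRNP genes, 9 of the 11 SR genes and 1 of the 3 PTB genes.

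**Figure D1:**
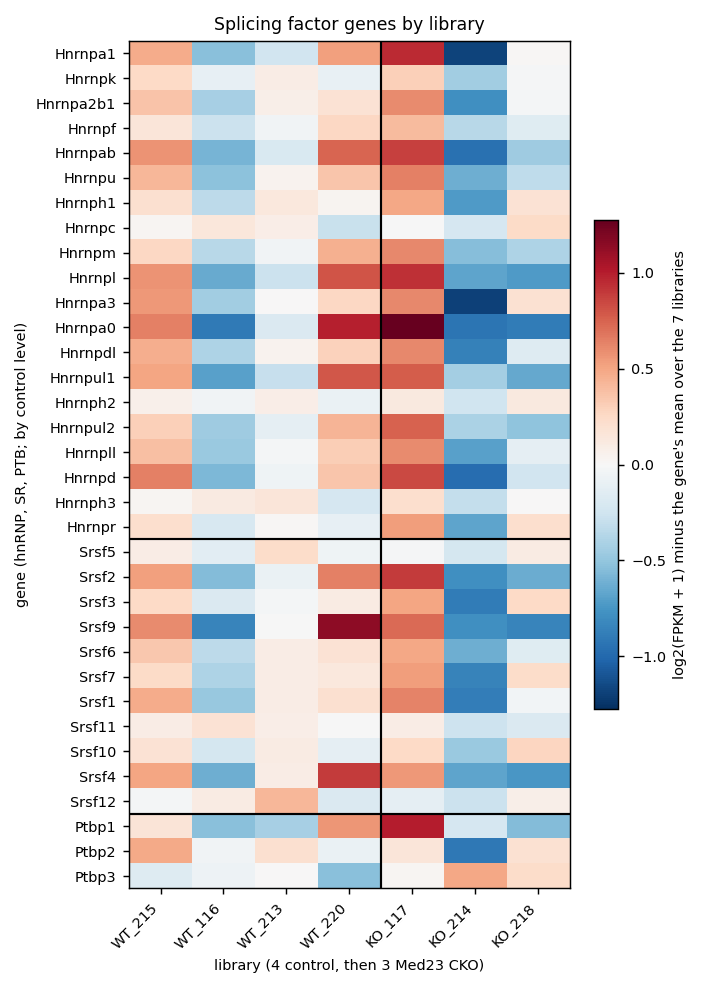
Each cell is log2(FPKM + 1) of 1 gene in 1 library minus the mean of that gene over the 7 libraries, with genes in rows (hnRNP, SR and PTB, separated by lines) and the 4 control and 3 Med23 CKO libraries in columns. KO_117 is red and KO_214 blue in most rows, and Ptbp3 has its highest value in KO_214.

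The genes differed in how widely they ranged. The highest of the 7 values was between 1.31 and 4.70 times the lowest, with a median of 2.56, and for 9 genes it was over 3 times the lowest. Hnrnpa0, a relative of Hnrnpa1 that binds AU-rich RNA, ranged most. It had 172, 58.7, 96.8 and 219.96 FPKM in the controls, and 268, 57.1 and 59.1 FPKM in the Med23 CKO libraries. Its values spanned 3.75-fold among the controls alone. Hnrnpa1 had 467, 231, 284 and 482 FPKM in the controls and 650.0, 147 and 339 FPKM in Med23 CKO, in the same order. Both the highest and the lowest value of these genes were in Med23 CKO libraries. By contrast, 5 genes ranged less than 1.5-fold: Hnrnpc, Hnrnph2, Hnrnph3, Srsf5 and Srsf11. Hnrnpc, which binds runs of U and competes with the splice site factor U2AF, had 179, 194, 186 and 144 FPKM in the controls and 175, 151 and 207 FPKM in Med23 CKO. Hnrnph2 had between 59.5 and 67.4 FPKM in the controls and 68.9, 52.8 and 68.9 FPKM in Med23 CKO. Genes alike in level could differ in range, as Hnrnpa1 and Hnrnpk ranged 4.42-fold and 1.67-fold.

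**Figure D2:**
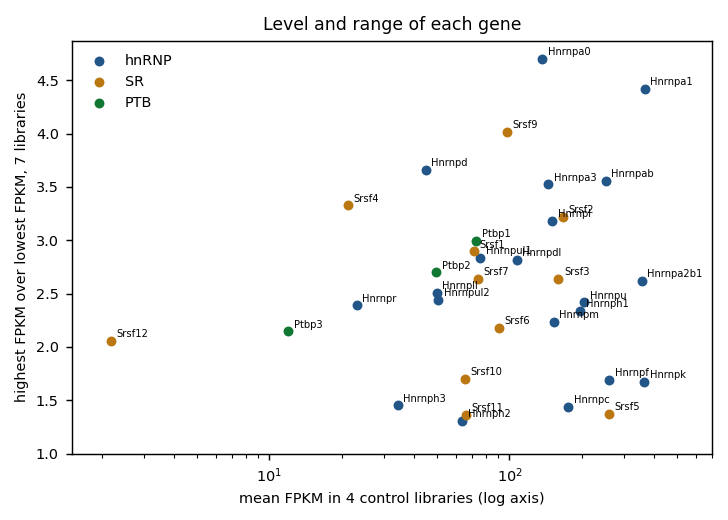
Each point is 1 gene, with its mean FPKM in the 4 control libraries on a log axis and its highest FPKM divided by its lowest over all 7 libraries. Hnrnpa0 ranges most at 4.70-fold and Hnrnph2 least at 1.31-fold, with abundant genes at both ends.

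Genes of the cell cycle took nearly the same order of libraries. The mean log2(FPKM + 1) of the 34 splicing factor genes was 6.71, 6.04, 6.39 and 6.65 in the controls, and 6.92, 5.79 and 6.23 in the CKO libraries. For 37 cell cycle genes it was 5.45, 3.72, 4.51 and 5.57 in the controls and 5.95, 2.83 and 4.53 in Med23 CKO, in the same order of mice. KO_117 was highest, KO_214 lowest and WT_116 second lowest on both lists. For 16 microglia and macrophage markers the mean was 2.13, 2.92, 3.30 and 1.62 in the controls and 1.64, 4.85 and 2.96 in Med23 CKO, with KO_214 highest. The summed FPKM of these markers ran from 66.3 to 379 in the controls and from 66.0 to 1532 in Med23 CKO, and none of the 16 was at 0 in every library. Endothelial markers (12 genes) summed to between 12.1 and 85.8 FPKM in the controls and between 7.93 and 147 FPKM in Med23 CKO, and mural cell and fibroblast markers (9 genes) to between 8.58 and 82.4 FPKM and between 6.37 and 312 FPKM. Astrocyte markers (6 genes) summed to between 283 and 400.3 FPKM in the controls and between 217 and 539 FPKM in Med23 CKO, neuron markers (12 genes) to between 153 and 175 FPKM and between 92.2 and 211 FPKM, and oligodendrocyte lineage markers (11 genes) to between 2979 and 5493 FPKM and between 2285 and 3363 FPKM. The mean log2(FPKM + 1) of these 11 genes was 6.75, 6.95, 6.37 and 5.73 in the controls and 4.57, 6.75 and 6.38 in Med23 CKO. KO_117 was the lowest library for 7 of the 11. NSC markers (12 genes) summed to between 1913 and 3939 FPKM in the controls and between 2107 and 3916 FPKM in Med23 CKO, and of these Nes lay between 61.1 and 240 FPKM and Sox2 between 69.4 and 194 FPKM over the 7 libraries. In the comparison of groups, 36 of the 37 cell cycle genes had a log2 fold change below 0 (median -0.44), where 56.2% of all genes tested did. For microglia markers, 14 of 14 tested were above 0 (median 0.81), where 43.8% of all genes tested were. On either list 0 had an unadjusted p under 0.05 (limma). The Med23 CKO libraries differed, as KO_117 was the highest library for 36 of the 37 cell cycle genes and KO_214 the lowest for 35. KO_214 was also the highest for 13 of the 14 microglia markers. Of the 12 neuron markers, 9 had a log2 fold change below 0 and 3 above 0. Only 1 passed unadjusted, as lower, where 0.996% of all genes tested did, and 0 passed at an adjusted p (limma). This was Gad1, which makes the transmitter GABA. It had 11.6, 8.92, 12.2 and 11.1 FPKM in the controls and 5.24, 2.21 and 4.42 FPKM in Med23 CKO. The part of these markers and of the cell cycle in the levels of the splicing factor genes was not tested.

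**Figure D3:**
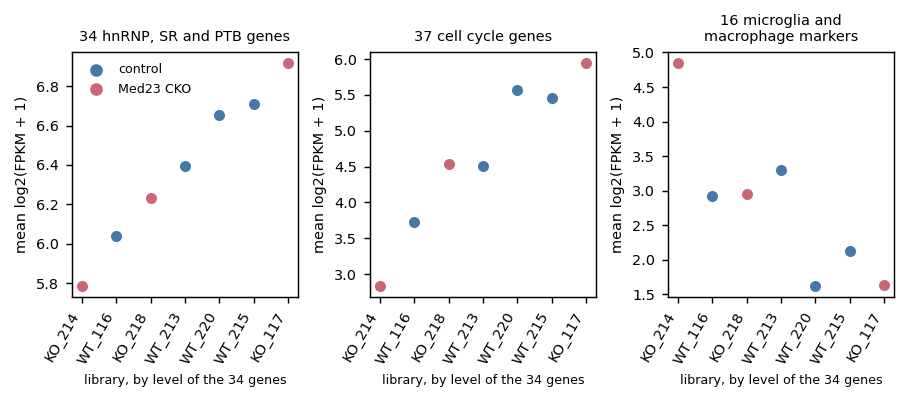
Mean log2(FPKM + 1) over the 34 splicing factor genes, 37 cell cycle genes and 16 microglia and macrophage markers in each library (blue control, red Med23 CKO), with libraries ordered by the first panel and a separate axis range in each panel. The splicing factor genes rise from 5.79 in KO_214 to 6.92 in KO_117, the cell cycle genes from 2.83 to 5.95, and the markers are highest in KO_214.

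Whether deletion of Med23 changes the level of these splicing factors was then asked by comparing the 3 Med23 CKO with the 4 control libraries. Med23 itself had 11.4, 10.3, 12.9 and 10.1 FPKM in the controls and 9.97, 9.27 and 8.12 FPKM in Med23 CKO. The highest Med23 CKO library was thus below the lowest control. The log2 fold change was -0.26, with a standard error of 0.18. It did not pass in limma (unadjusted p = 0.175, adjusted p = 0.9999) or in the two-sided exact permutation test (p = 0.0571). Its FPKM includes exons outside the deleted part. In limma's test across the 14151 genes tested, on log2(FPKM + 1), 0 of the 34 splicing factor genes passed at an adjusted p under 0.05, and 0 genes passed in the whole table. At an unadjusted p under 0.05, 0 of the 34 were higher and 0 lower, against 0.502% and 0.996% of all genes tested. Their median log2 fold change was -0.15, against -0.03 over all genes tested, with 29 of the 34 below 0 where 56.2% of all genes were. The lowest of the 3 Med23 CKO values exceeded the highest of the 4 controls for 1 gene, Ptbp3 (0.784% of all genes tested), and the reverse order was seen for 0 genes (1.53% of all genes tested). The 95% interval of the log2 difference lay between -1 and 1 for 19 of the 34 genes, so that for the other 15 a change of 2-fold was within the interval, and it did so for 63.8% of all genes tested. Without KO_214 the median of the family was 0.10, and without KO_117 it was -0.46.

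**Figure D4:**
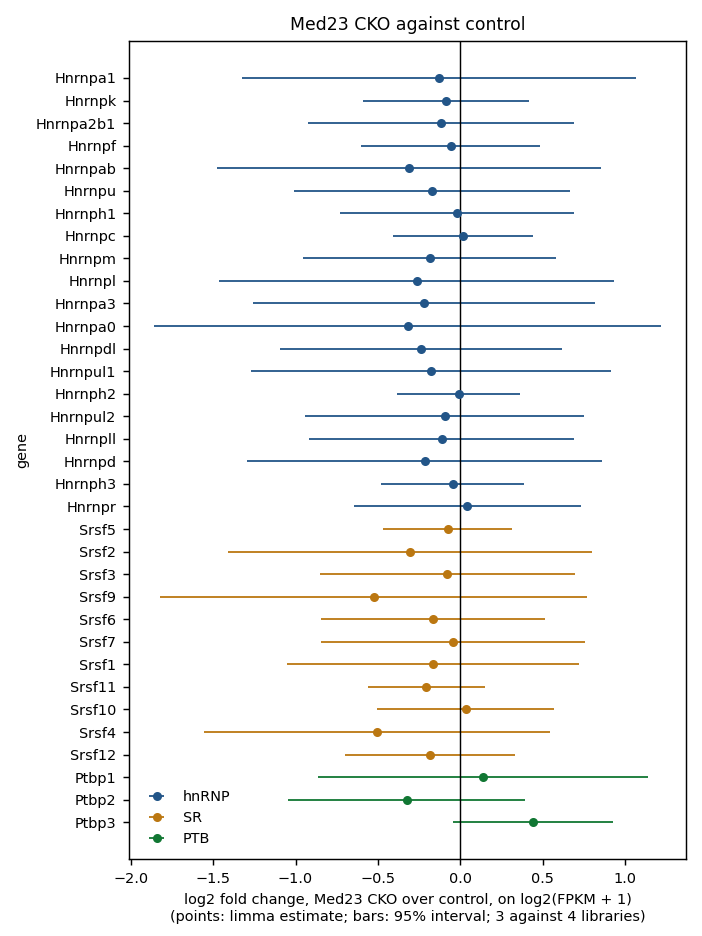
Points are log2 fold changes of Med23 CKO over control on log2(FPKM + 1) and bars are 95% intervals from limma (3 against 4 libraries), for hnRNP, SR and PTB genes. Every interval includes 0, and Ptbp3, whose interval runs from -0.04 to 0.93, is nearest to leaving it out.

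The 20 hnRNP genes had a median log2 fold change of -0.12, with 2 above 0 and 18 below, and their fold changes ran from -0.32 (Hnrnpa0) to 0.04 (Hnrnpr). For Hnrnpa0, the interval reached from -1.86 to 1.22 (standard error 0.66). For Hnrnpa1 it reached from -1.32 to 1.07 around a log2 fold change of -0.13. Hnrnpk had 420, 327, 378 and 331 FPKM in the controls, and 434, 260 and 349 FPKM in the CKO libraries. Its log2 fold change was -0.09, with a 95% interval from -0.59 to 0.41, which leaves out a 2-fold change either way. Hnrnpa2b1 had 434, 251, 354 and 384 FPKM in the controls and 512, 196 and 330.4 FPKM in the CKO libraries. This gave a log2 fold change of -0.12, with a standard error of 0.35. Hnrnpf had 281, 210 and 246 FPKM in WT_215, WT_116 and WT_213 and 305 FPKM in WT_220, and 335, 198 and 228 FPKM in the CKO libraries. The log2 fold change was -0.06, with a standard error of 0.23. For each of these genes the groups overlapped, with KO_117 the highest and KO_214 the lowest library. The narrowest intervals among hnRNP genes were those of Hnrnph2, from -0.38 to 0.36, and Hnrnpc, from -0.41 to 0.44. Hnrnpl, named here after its values were seen because its protein binds Med23, had 191, 82.2, 106 and 224 FPKM in the controls and 247, 80.5 and 77.6 FPKM in Med23 CKO. Its groups overlapped, and the log2 fold change was -0.27 (standard error of 0.51 and a 95% interval from -1.46 to 0.93).

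The 11 SR genes had a median log2 fold change of -0.17, with 1 above 0 (Srsf10, 0.03) and 10 below. Srsf9, an SR protein with a short arginine and serine domain, was furthest below. It had 112, 40.8, 73.8 and 164 FPKM in the controls, and 123, 42.4 and 40.8 FPKM in the CKO libraries. This gave a log2 fold change of -0.53, with a standard error of 0.55. KO_117 lay within the control values, and KO_214 and KO_218 were at the level of the lowest control, WT_116. Srsf4, a large SR protein, had 24.3, 10.6, 18.1 and 32.1 FPKM in the controls and 25.3, 10.2 and 9.65 FPKM in the CKO libraries. The log2 fold change was -0.50, with a standard error of 0.45. Its values took the same form, with KO_117 among the controls and KO_214 and KO_218 just under WT_116. Srsf11, which acts on splice site choice, had 66.4, 70.4, 65.7 and 61.7 FPKM in the controls and 66.3, 51.6 and 54.3 FPKM in Med23 CKO. Its log2 fold change of -0.21 had the smallest standard error of the family, 0.15, with an interval from -0.56 to 0.15 (exact permutation test, two-sided, p = 0.171). Srsf5 had 269, 228, 296 and 242 FPKM in the controls and 249, 216 and 270 FPKM in Med23 CKO, with an interval from -0.47 to 0.31. The groups overlapped for all 11 SR genes. Without KO_117, the log2 fold changes of Srsf9 and Srsf4 were -1.04 and -0.93.

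Of the 3 PTB genes, 2 had a log2 fold change above 0 and 1 below, and 0 passed the test. Ptbp1 (chr10:79854427-79864771) had 80.8, 49.6, 53.4 and 107 FPKM in the controls, and 146, 61.9 and 48.7 FPKM in the CKO libraries. It was highest in KO_117 and lowest in KO_218, and its log2 fold change of 0.13 (standard error 0.43) was -0.33 without KO_117. Ptbp2 (chr3:119718742-119784466) had 62.2, 43.1, 51.5 and 41.8 FPKM in the controls and 49.6, 23.1 and 51.1 FPKM in Med23 CKO. KO_117 and KO_218 lay within the control range and KO_214 below it, and its log2 fold change of -0.33 (standard error 0.31) was 0.037 without KO_214. Ptbp2 over Ptbp1, as a ratio of FPKM, was 0.770, 0.870, 0.963 and 0.389 in the controls and 0.340, 0.372 and 1.05 in Med23 CKO. The ratio was below 0.4 in WT_220, KO_117 and KO_214 and at 0.770 or more in the others, so both groups held low and high values. The low ratios were not alike. Ptbp1 was highest in WT_220 and KO_117 (107 and 146 FPKM), while KO_214 had the lowest Ptbp2 (23.1 FPKM).

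Ptbp3 (chr4:59471868-59549364) took another order of mice. It had 12.1, 13.0, 13.7 and 9.15 FPKM in the controls, and 13.9, 19.6 and 16.2 FPKM in the CKO libraries. The groups did not overlap, with 0.243 FPKM between the nearest pair, KO_117 and WT_213. Its log2 fold change was 0.44 (standard error 0.21, 95% interval from -0.04 to 0.93), which did not pass in limma (adjusted p = 0.9999, unadjusted p = 0.0682) or in the exact permutation test (two-sided, p = 0.0571, where the smallest possible is 0.0286). It was the only one of the 34 genes with its highest value in KO_214, where 25.4% of all genes tested had theirs. KO_214 was also the highest library for 13 of 14 tested microglia markers and 10 of 11 endothelial markers. The same held for 8 of 8 mural cell and fibroblast markers and 4 of 6 astrocyte markers. The part of these cells in the level of Ptbp3 was not tested. Without KO_214 its log2 fold change was 0.32, and without KO_117 it was 0.55 (unadjusted p = 0.0463, limma).

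**Figure D5:**
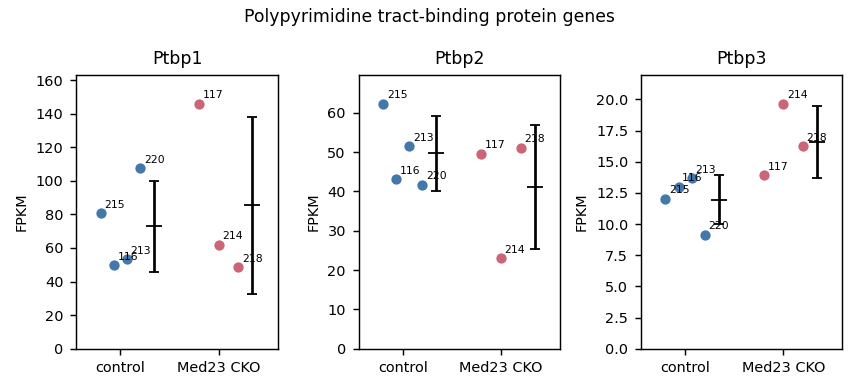
FPKM of Ptbp1, Ptbp2 and Ptbp3 in each library, labelled by mouse number, with the mean and SD of each group as black marks (n = 4 control, n = 3 Med23 CKO). Groups overlap for Ptbp1 and Ptbp2, and the 3 Med23 CKO values of Ptbp3, from 13.9 to 19.6 FPKM, sit above the 4 control values.

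Other genes that act on splicing were grouped by function. Of 45 genes of the core spliceosome, 0 had an unadjusted p under 0.05. The median log2 fold change was -0.12, and 39 were below 0, where 56.2% of all genes tested were. KO_117 was the highest library for 26 of the 45, where it was for 23.6% of all genes tested. KO_214 was the lowest for 14 of the 45, where it was for 18.7% of all genes tested. Of 20 SR-related proteins and SR kinases, 0 passed, with a median of -0.14 and 18 below 0. KO_117 was the highest library for 7 of these 20 and KO_214 the lowest for 10, beside the same shares of 23.6% and 18.7%. Tra2b, an SR-like activator, had 113, 80.3, 95.9 and 113 FPKM in the controls and 146, 63.1 and 99.4 FPKM in Med23 CKO, highest in KO_117 and lowest in KO_214. Clk1, a kinase that phosphorylates SR proteins, took another order, with 31.7, 55.3, 50.6 and 25.1 FPKM in the controls and 22.8, 44.5 and 45.2 FPKM in Med23 CKO, lowest in KO_117. Srpk1, the main cytoplasmic SR kinase, ranged from 18.6 to 23.1 FPKM over the controls and from 18.3 to 27.7 FPKM over the Med23 CKO libraries. Of 20 RNA-binding proteins related to hnRNPs, 0 passed, with a median of -0.10. KO_117 was the highest library for 13 of these 20 and KO_214 the lowest for 10. Of 15 genes of nonsense-mediated decay and the exon junction complex, 0 passed, with a median of -0.09. Here KO_117 was the highest for 4 of the 15 and KO_214 the lowest for 3. Over all genes tested the shares were 23.6% and 18.7%.

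Of 30 tissue-specific splicing regulators, 24 could be tested, with a median log2 fold change of -0.19. KO_117 was the highest library for 8 of the 24, where it was for 23.6% of all genes tested. KO_214 was the lowest for 14 of the 24, where it was for 18.7% of all genes tested. Only 1 of the 24, Celf3, was lower at an unadjusted p under 0.05, where 0.996% of all genes tested were (0 at an adjusted p, limma). Celf3, a neuronal regulator of the CELF family, had 5.58, 4.41, 2.56 and 4.68 FPKM in the controls and 3.62, 1.15 and 1.004 FPKM in the CKO libraries. This gave a log2 fold change of -0.94, a standard error of 0.36 and KO_117 inside the control range. Qk, the quaking protein that regulates splicing in glia, had 303, 204, 229 and 198 FPKM in the controls and 189, 162 and 182 FPKM in Med23 CKO. All its Med23 CKO values were below all its control values, for 1 of the 24 regulators tested and 1.53% of all genes tested. The log2 fold change was -0.37, its standard error 0.19 and the p of the two-sided exact permutation test 0.0857. The neuronal factor Nova2 was lowest in KO_214, with 11.5, 3.36, 5.33 and 14.0 FPKM in the controls and 13.1, 2.25 and 2.96 FPKM in Med23 CKO. Rbfox3, the NeuN protein of mature neurons, was between 0.847 and 4.23 FPKM, and Srrm4, which activates neuronal microexons, between 0.228 and 0.762 FPKM, below the filter on low values.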

How the data were processed

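Libraries from primary neurospheres of single mice were grouped by sample title into 4 control and 3 Med23 CKO. The authors removed adapters, aligned reads to mm10 with TopHat and calculated the deposited FPKM values per gene with Cuffdiff. The annotation and library normalization are not given in the sources used here. The columns of the authors' comparison (fold change, test score, p-value and q-value) and their group means were not used, and 0 columns lacked a sample. Low values showed no steps of whole fragments (at most 4.56% of low genes in 1 bin of 0.05 log2, over 21 pairs of libraries), so depth is unknown. Correlations of log2(FPKM + 1) between libraries ran from 0.907 to 0.990 and 0 pairs were identical.

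Genes with a mean of at least 0.5 FPKM (14151) were tested on log2(FPKM + 1) by limma 3.58.1 in R 4.3.3 (lmFit, eBayes with trend, two-sided, Benjamini-Hochberg over all genes tested). Fold changes were taken on this scale, where those of low genes come out too small. Each library is 1 mouse, so p-values measure the spread between these mice. Exact permutation tests enumerated the 35 assignments of libraries to groups. Members and lists were chosen with earlier results of these data known. Genes named are Med23, the PTB genes, the 5 highest members in control, the 5 with the largest change and the 5 with the smallest p, members whose groups do not overlap, and list genes of set roles or with groups that do not overlap. Others were chosen after their values were seen. On simulated data for this comparison (14151 genes, each with its own spread), 142 of 200 genes changed by 2 on the log2 scale were called, with 12 false calls. With the median spread for every gene, 200 of 200 were called, with 17 false calls.

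Gene models are from GENCODE M21 and promoters from RefSeq (GRCm38.p6), both of the build mm10. For 14 members, GENCODE lists processed pseudogenes at least 90% identical over at least 50% of the coding length (blastn 2.17.0), 33 for Hnrnpa3 and 10 for Hnrnpa1, and 8 members overlap another protein-coding gene, so their FPKM may share reads. The alternatives were a pseudocount of 0.1, no filter, a mean of at least 1 FPKM, quantile normalization, median centring, limma without trend, with robust empirical Bayes or with array weights, a covariate from the leading digit of mouse numbers, exact permutation, and each library left out.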

Additional observations from a re-analysis of the deposited data

How the results depend on the processing

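No paired analysis was possible because each number names 1 mouse and the litters of the mice are not given in the sources used here. At an adjusted p under 0.05, 0 of the 34 splicing factor genes were called under any alternative fitted across all genes (exact permutation was run only for single named genes, without adjustment). With array weights, 1 was higher (Ptbp3) and 2 lower (Srsf4 and Srsf11) at an unadjusted p under 0.05, the median of the PTB genes was -0.16, Ptbp1 turned to -0.24, Med23 was -0.43 (unadjusted p = 0.0205), and 193 genes were higher and 887 lower in the whole table. The estimate of those weights stopped before it converged. Without a filter, 140 genes were higher. The cause was not tested. With libraries left out in turn, 0 to 1 of the 34 were higher and 0 to 1 lower at an unadjusted p under 0.05 (without KO_117 Ptbp3 was higher and Srsf2 lower, at -0.84), and 0 to 1 genes of the whole table were higher at an adjusted p, 44 to 362 higher and 71 to 410 lower at an unadjusted p. The median log2 fold change ran from -0.46 to 0.10 for the family, from -0.52 to 0.11 for hnRNP genes, from -0.35 to 0.01 for SR genes and from -0.33 to 0.45 for PTB genes. Single genes whose sign turned ran from -0.33 to 0.45 (Ptbp1), -0.52 to 0.037 (Ptbp2), -0.64 to 0.43 (Hnrnpa1), -0.26 to 0.10 (Hnrnpk), -0.45 to 0.24 (Hnrnpa2b1), -0.28 to 0.10 (Hnrnpf), -0.15 to 0.0099 (Srsf5) and -1.05 to 0.057 (Hnrnpa0). Ptbp3 stayed between 0.32 and 0.55, Med23 between -0.32 and -0.19, Srsf9 between -1.04 and -0.22, Srsf4 between -0.93 and -0.27 and Srsf11 between -0.31 and -0.13.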
